A study of Homo sapiens with 2 samples.

Results

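Host-gene and named long noncoding RNAs were examined on the expression arrays of HCC15 (a long-established line from a human lung cancer that the labels call squamous) after knockdown of CTNNB1, the gene of beta-catenin, which carries Wnt signals to the nucleus. They were taken as every probe set whose only annotated gene symbol was a numbered SNHG, a numbered MIR host gene (HG), or 1 of 21 named RNAs such as GAS5, MALAT1, MEG3 and TUG1. This gave 117 of the 54675 probe sets, which read 56 of the 19775 genes with a probe set of 1 symbol. Of the 21 names, H19 and NEAT1 had no probe set with a single symbol, and a further 76 probe sets that listed a symbol of the rule together with other symbols named no gene here. The control group was 1 culture given a control siRNA, with the word Tax in its sample title and no target stated in the labels, and the treated group was 1 culture given CTNNB1 siRNA. Both were grown in RPMI 1640 medium with 5% serum and collected 48 h after transfection, and neither the siRNA sequences nor the number of siRNAs is given. Each group was therefore 1 array, so each number is 1 reading, no p-value between conditions could be had, and all differences describe these 2 arrays and include any difference between the cultures.

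Long noncoding RNAs are transcripts that are not translated into a conserved protein. Small nucleolar RNA host genes carry in their introns the small nucleolar RNAs that guide chemical modification of ribosomal RNA. Their spliced transcripts are often turned over by nonsense-mediated decay, and many begin with a terminal oligopyrimidine tract (TOP), the 5′ feature that ties translation to nutrient signalling. MicroRNA host genes are the primary transcripts, or enclose the hairpins, from which microRNAs are cut by Drosha and Dicer. Other named RNAs act in the nucleus or cytoplasm themselves, among them MALAT1, an abundant RNA of nuclear speckles, the protein-rich domains that store splicing factors.

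The start regions of several members are shown because the members they belong to shared a sequence feature there or, for MALAT1, had the largest ratio. They come from RefSeq (GRCh38.p14), run from 250 bases before to 50 after the annotated start, and are given 5′ to 3′ on the strand of the gene. For MALAT1, capitals mark the 50 bases after the start of the first of its 2 windows.
MALAT1, chr11:65497488-65497787 (+): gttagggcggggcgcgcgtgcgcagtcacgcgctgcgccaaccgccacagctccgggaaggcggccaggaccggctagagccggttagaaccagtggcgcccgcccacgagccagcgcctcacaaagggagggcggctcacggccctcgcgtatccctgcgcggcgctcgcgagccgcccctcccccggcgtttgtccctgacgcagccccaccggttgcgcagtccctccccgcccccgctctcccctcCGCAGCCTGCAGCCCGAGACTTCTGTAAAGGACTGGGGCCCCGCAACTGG

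The next 3 windows belong to snoRNA hosts whose annotated start is a C followed by at least 4 further pyrimidines. Capitals mark this TOP start.
ZFAS1, chr20:49278392-49278691 (+): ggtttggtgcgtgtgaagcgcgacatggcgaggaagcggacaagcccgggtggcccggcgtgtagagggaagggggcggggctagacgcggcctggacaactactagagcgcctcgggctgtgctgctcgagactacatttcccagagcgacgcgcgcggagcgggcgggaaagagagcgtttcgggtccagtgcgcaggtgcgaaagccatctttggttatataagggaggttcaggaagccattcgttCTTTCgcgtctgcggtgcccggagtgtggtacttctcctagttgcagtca
SNHG32, chr6:31834666-31834965 (+): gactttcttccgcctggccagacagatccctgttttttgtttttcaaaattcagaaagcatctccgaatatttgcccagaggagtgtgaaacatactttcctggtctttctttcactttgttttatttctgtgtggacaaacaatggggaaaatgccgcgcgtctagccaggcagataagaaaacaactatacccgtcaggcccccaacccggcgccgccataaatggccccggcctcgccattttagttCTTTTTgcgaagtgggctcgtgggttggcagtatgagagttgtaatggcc
SNHG19, chr16:2155309-2155608 (-): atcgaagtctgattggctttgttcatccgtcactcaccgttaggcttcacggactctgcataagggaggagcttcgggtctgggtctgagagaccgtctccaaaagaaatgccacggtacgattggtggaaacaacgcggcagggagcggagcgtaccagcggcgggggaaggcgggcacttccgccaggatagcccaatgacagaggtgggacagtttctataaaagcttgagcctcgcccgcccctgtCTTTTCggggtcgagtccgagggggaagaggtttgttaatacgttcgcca

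The last 5 windows belong to all members with CACGTG, the E-box letters that MYC and MAX bind, in a window. These RNAs did not share a direction. With CTNNB1 siRNA the log2 ratio was -0.76 for OIP5-AS1, -0.31 for TUG1, -0.29 for NORAD, -0.03 for LINC-PINT and 0.68 for DLEU2. Those of TUG1, NORAD and LINC-PINT lay within the spread between probe sets over all genes given below (an SD of 0.42). Capitals mark the E-box, whose first base lies at position -240 in OIP5-AS1, -77 in TUG1, -138 in NORAD, -230 in DLEU2 and -82 in LINC-PINT, counted from the start (1 of 2 windows of DLEU2 and 1 of 4 of LINC-PINT).
OIP5-AS1, chr15:41283740-41284039 (+): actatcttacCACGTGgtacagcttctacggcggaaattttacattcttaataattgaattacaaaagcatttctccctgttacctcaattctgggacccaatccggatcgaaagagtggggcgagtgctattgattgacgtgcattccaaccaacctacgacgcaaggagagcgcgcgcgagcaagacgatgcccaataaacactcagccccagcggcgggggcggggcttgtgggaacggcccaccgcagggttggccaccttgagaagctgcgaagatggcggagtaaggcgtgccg
TUG1, chr22:30969015-30969314 (+): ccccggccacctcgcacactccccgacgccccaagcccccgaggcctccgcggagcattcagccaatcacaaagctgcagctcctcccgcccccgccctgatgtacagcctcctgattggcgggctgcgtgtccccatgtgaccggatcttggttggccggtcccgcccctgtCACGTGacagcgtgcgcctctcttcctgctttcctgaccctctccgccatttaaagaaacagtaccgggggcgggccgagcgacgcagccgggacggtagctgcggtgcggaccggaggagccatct
NORAD, chr20:36050911-36051210 (-): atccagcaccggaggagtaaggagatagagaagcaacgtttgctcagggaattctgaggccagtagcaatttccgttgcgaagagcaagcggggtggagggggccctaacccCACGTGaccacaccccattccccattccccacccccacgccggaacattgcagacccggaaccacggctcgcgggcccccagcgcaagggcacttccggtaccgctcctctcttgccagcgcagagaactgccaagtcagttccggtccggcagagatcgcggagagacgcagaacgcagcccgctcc
DLEU2, chr13:50125492-50125791 (-): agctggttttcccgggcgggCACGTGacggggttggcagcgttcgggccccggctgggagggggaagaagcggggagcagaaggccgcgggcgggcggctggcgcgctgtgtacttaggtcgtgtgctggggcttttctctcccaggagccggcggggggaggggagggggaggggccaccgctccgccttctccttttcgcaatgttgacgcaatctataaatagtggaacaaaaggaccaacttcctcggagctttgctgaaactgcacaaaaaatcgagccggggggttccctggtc
LINC-PINT, chr7:130913261-130913560 (-): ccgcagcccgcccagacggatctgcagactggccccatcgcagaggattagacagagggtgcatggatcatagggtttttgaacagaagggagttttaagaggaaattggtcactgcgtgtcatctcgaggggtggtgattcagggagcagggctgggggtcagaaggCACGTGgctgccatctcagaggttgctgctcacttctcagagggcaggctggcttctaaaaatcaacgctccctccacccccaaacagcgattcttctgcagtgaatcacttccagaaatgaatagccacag

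A window was found for 43 of the 56 member RNAs. The TOP start was present in 5 of 14 snoRNA hosts (SNHG4, SNHG18, SNHG19, SNHG32 and ZFAS1), 35.7%, against 5.14% of all 27305 genes with a window, and in no member of another kind. CACGTG (its own reverse complement) was present in 5 of the 43, DLEU2, LINC-PINT, NORAD, OIP5-AS1 and TUG1, 11.6% against 8.77% of all genes. Over the same 43 the TOP start was also in 5, 11.6%. Of the 26 with a window that passed the signal filter given below, CACGTG was in 5, 19.2%, and the TOP start in 3, 11.5%. CTTTGAT, letters that TCF and LEF factors bind, searched on both strands, was present in 1 of the 43, MIR670HG, 2.33% against 3.18% of all genes. These matches describe the letters in 300 bases and not bound sites.

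For the microRNA hosts, the mature RNAs named in their symbols are shown with the seed (bases 2 to 8) in capitals. They show part of what these transcripts can give rise to, and the arrays did not read them. Further microRNAs of the same hosts were not matched, so their seeds were not compared. MIR1915HG and MIR31HG read lower with CTNNB1 siRNA, and hsa-miR-99a-5p and hsa-miR-100-5p share a seed, the only seed shared among the 37 mature RNAs matched to 24 of the 26 MIR host genes.
hsa-miR-1915-3p: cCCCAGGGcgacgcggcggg
hsa-miR-1915-5p: aCCUUGCCuugcugcccgggcc
hsa-miR-31-5p: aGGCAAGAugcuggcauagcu
hsa-miR-99a-5p: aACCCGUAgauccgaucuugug
hsa-miR-100-5p: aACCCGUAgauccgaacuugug

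A probe set was said to enter when its 2 signals averaged 49.1 or more, the median over both arrays, and the brightest entering probe set stood for its gene. On the deposited scale the 12531 entering genes had a median log2 ratio (CTNNB1 siRNA over control siRNA) of 0.15, and the median depended on the signal, at -0.09 for genes under the 75th percentile of signal (209) and 0.23 for genes at or above it. The brightest CTNNB1 probe set read 1224 and 339, which is 27.7% of the control, and the other CTNNB1 probe sets read 51.0% and 91.3%. All 7 epithelial markers on the list (such as KRT8, KRT18 and EPCAM) entered. Of 9 squamous markers 7 had a probe set with a single symbol and 2 of these entered, S100A2 and SOX2, while KRT5, KRT14, DSG3, PKP1 and SERPINB5 stayed at 37.5 or lower on both arrays, so these 5 markers were near background in a line labelled squamous. Of the glandular markers NAPSA, SFTPB and SFTPC entered and NKX2-1 did not, and the summed signal of these 4 was 349 and 436. The summed signal of the squamous markers was 243 and 240, and that of stromal, endothelial and immune markers 302 and 230. Of the latter, DCN and PECAM1 entered, and PTPRC, CD3E, VWF and LUM did not. Whether these shifts have a part in the values below was not tested. A signal from a whole culture does not tell fewer cells with an RNA from less of it per cell.

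Of the 117 probe sets, 62 entered and read 29 of the 56 RNAs. As deposited 12 of the 29 read higher and 17 lower with CTNNB1 siRNA, against 8024 higher and 4499 lower of all genes, and the median log2 ratio was -0.06 against 0.15. The majority turned with the scaling, to 17 higher and 12 lower with a common median and 9 higher and 20 lower with a common trimmed mean, while the members' median stayed below that of all genes under all 5 normalizations. MALAT1 was the only member at least 2-fold higher and MEG3 the only one at least 2-fold lower. Over all genes the share past 2-fold upward was 2.29% and downward 2.38%, and 2 of 29 members past 2-fold in either direction is 6.90% against 4.67%, close to the background at this number of members.

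The error available is the spread between probe sets of the same gene, a pooled SD of 0.42 on the log2 scale over 5791 genes (0.29 for bright probe sets). Within the members it was 0.46 over 13 RNAs with several entering probe sets, and 0.38 without MALAT1. It covers probe set error and isoform differences and not variation between cultures. The SD used for single genes here is the 0.42 over all genes. By it 16 of the 29 lay within 1 SD of 0, 5 lay above it (17.2%, against 21.3% of all genes) and 8 below it (27.6%, against 11.9%). These shares were counted as deposited and not matched for signal. Of the 8, MEG3, MIR31HG, MIR3945HG and MIR3936HG were dim, and dim genes had a median of -0.09 against 0.23 for bright genes. Whether the shares differ among genes of like signal was not tested.

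**Figure D1:**
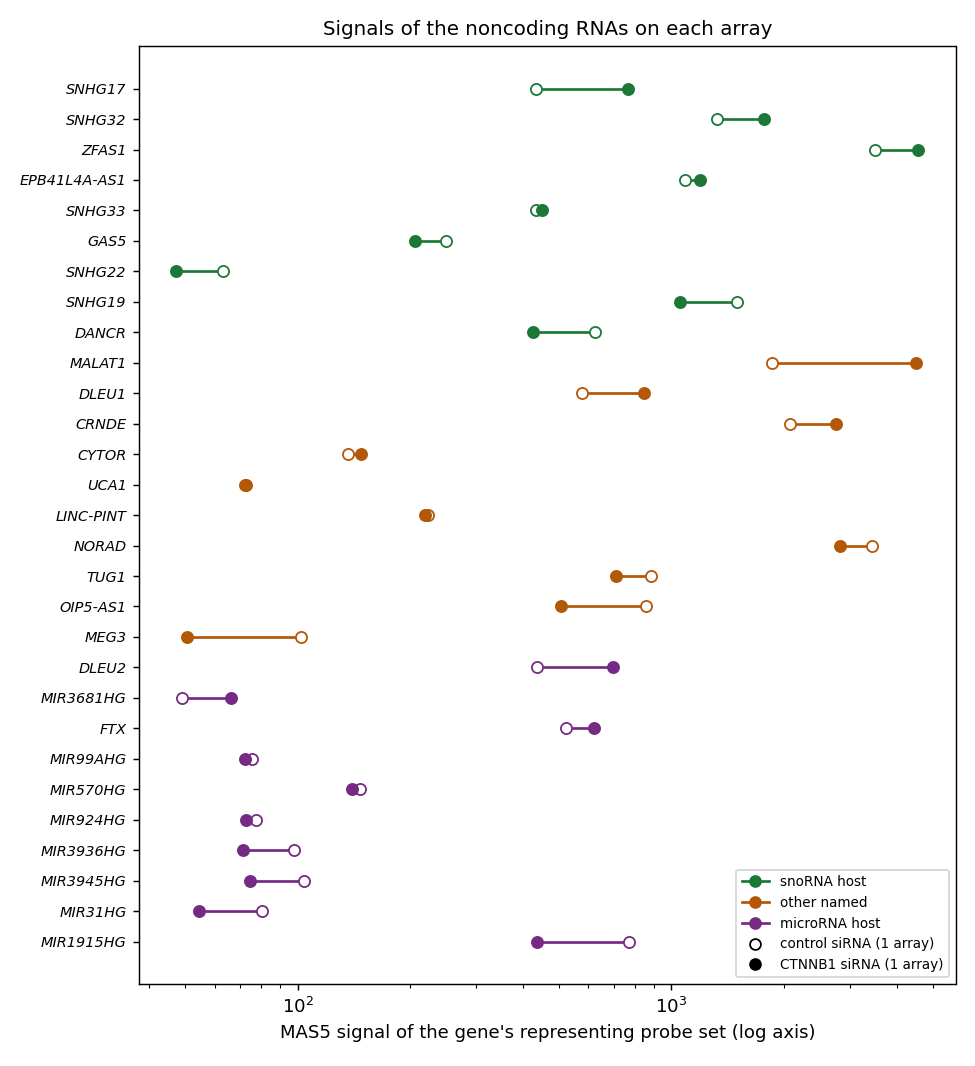
MAS5 signal (log axis) of the representing probe set of each of the 29 entering RNAs on the control siRNA array (open) and the CTNNB1 siRNA array (filled), 1 array per group, coloured by class. MALAT1 has the widest gap upward (1863 to 4517) and MEG3 the widest downward (102 to 50.6); signals of different probe sets are not comparable with each other.

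MALAT1 was higher with CTNNB1 siRNA on every one of its 12 probe sets, of which 11 entered. Its brightest probe set read 1863 with control siRNA and 4517 with CTNNB1 siRNA, 2.42-fold higher, a log2 ratio of 1.28. Among all genes 118 of 12531 had a ratio as high or higher, and among the 7913 bright genes 44 did. The 12 probe sets spread over a wide range. Of the next brightest, one read 586 and 1508 (2.57-fold) and another 443 and 1466 (3.31-fold). Of the dimmer ones, one read 123 and 400 (3.25-fold) and another 73.2 and 159.6 (2.18-fold). These 5 were the only entering member probe sets at least 2-fold higher, 5 of 62 against 3.48% of all entering probe sets. With the MEG3 probe set described below, 9.68% of the members' entering probe sets were past 2-fold against 5.90% of all. As probe sets of 1 transcript the 5 are not independent of each other.

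The other 7 MALAT1 probe sets lay between 0.09 and 0.59 on the log2 ratio scale. The brightest of these read 375 and 563 (0.59), and the next 262 and 316 (1.21-fold). The lowest ratio was that of a dim probe set at 89.4 and 95.3. The SD over the 11 entering probe sets was 0.60, larger than the 0.42 over all genes, and their median of 0.59 stayed under 2-fold. MALAT1 is a single long transcript, and the annotation does not give where on it each probe set lies. Its ratio was 1.0 after loess and after quantile normalization, at the edge of the rule, and 1.41 after scaling to a common median.

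Nuclear speckle and splicing protein genes, listed as the companions of MALAT1, had a median log2 ratio of 0.47 over 12 entering genes, with 11 above the median of all genes. SRRM2, a scaffold protein of speckles, was the only one past 2-fold and read 1127 and 2859, 2.54-fold higher. Another SRRM2 probe set read 98.3 and 413. SON, the other scaffold, had a log2 ratio of 0.52 (2990 and 4293) and PRPF8, a core spliceosome protein, one of 0.61. After loess the median of this list was 0.21, with 11 genes still above 0.

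MEG3, an imprinted RNA that is silenced in many tumours, was 2.02-fold lower on the 1 probe set that entered (102 and 50.6). The other 9 MEG3 probe sets stayed under the signal filter and did not go the same way. The brightest of these read 32.0 and 54.9, 41.0 and 41.8, and 34.6 and 27.5. MEG3 thus read low on both arrays, its call rests on 1 dim probe set, and the log2 ratio of that probe set was -0.92 after loess, under 2-fold.

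OIP5-AS1, a conserved RNA also called cyrano, was lower on all 3 of its probe sets. The brightest read 857 and 506, and the dimmest 282 and 167, both 1.69-fold lower with a log2 ratio of -0.76. The remaining one read 396 and 348, a log2 ratio of -0.18, within the probe set SD. The ratio of the representing probe set was -0.99 after loess, just short of 2-fold. OIP5, the coding gene on the opposite strand, read 2158 and 2291 (0.09), so the pair did not move together on these arrays.

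TUG1, a nuclear RNA known for roles in gene silencing, was lower on its brightest probe set. So was NORAD, a cytoplasmic RNA that binds Pumilio proteins and is induced by DNA damage. Both ratios were smaller than the probe set SD of 0.42 over all genes. TUG1 read 882 and 709 (-0.31), beyond the 0.29 of bright probe sets. Its other entering probe sets had log2 ratios of 0.16, -0.05 and -0.73, the last from a dim probe set (117 and 70.6). NORAD read 3449 and 2825 (-0.29), while its dim probe set read 52.5 and 90.8 (0.79), so that the median over both was 0.25, of the opposite sign. After loess the brightest probe sets of both had a ratio of -0.56, beyond either SD. The reading of these RNAs thus depends on the scaling and on the SD used.

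CRNDE, an RNA raised in colorectal and other tumours, was higher on both of its probe sets. The brighter read 2074 and 2764 (1.33-fold) and the dimmer 437 and 642 (1.47-fold). DLEU1, which lies in the 13q14 region lost in leukaemia, read 578 and 845 (1.46-fold) on its 1 probe set. After loess these were 0.14 for the bright CRNDE probe set and 0.31 for DLEU1. Both were within the SD of 0.42, while DLEU1 lay beyond the 0.29 of bright probe sets. LINC-PINT (223 and 219), UCA1 (72.8 and 72.4) and CYTOR (137 and 148) read nearly alike on both arrays, with log2 ratios from -0.03 to 0.12. PVT1, HOTAIR and KCNQ1OT1 had no entering probe set.

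**Figure D2:**
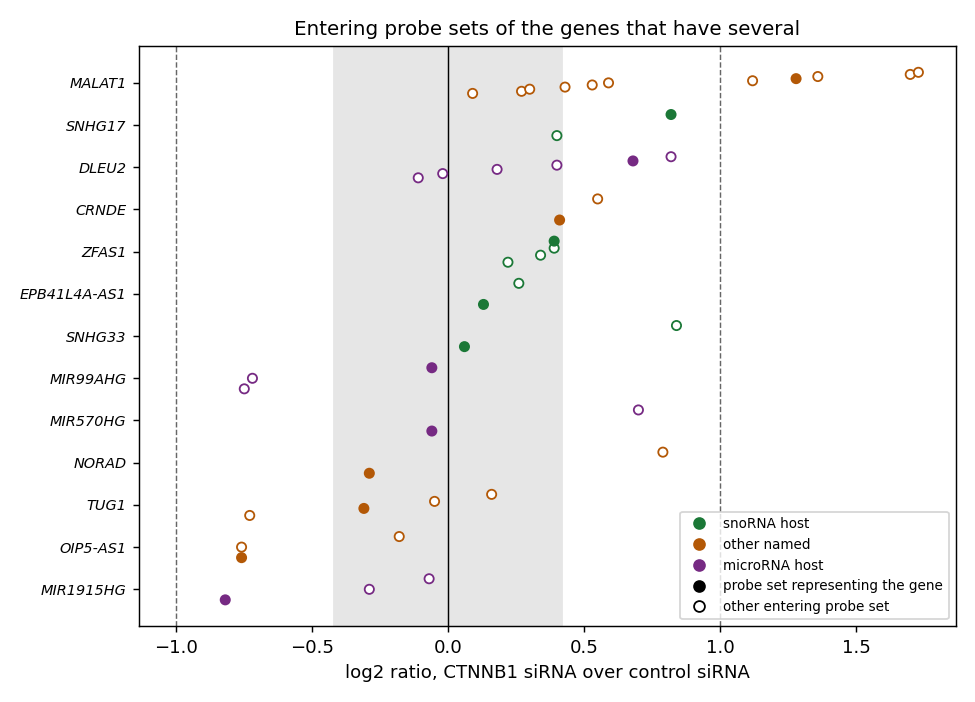
Log2 ratio (CTNNB1 siRNA over control siRNA) of each entering probe set of the 13 RNAs that have several; filled points represent the gene, the grey band is ± 1 pooled probe set SD (0.42) and dashed lines mark 2-fold. All entering probe sets lie above 0 for 6 RNAs and below 0 for 3, and those of DLEU2, MIR570HG, NORAD and TUG1 lie on both sides.

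The snoRNA host RNAs went both ways. Of 15, 9 entered, 5 read higher and 4 lower as deposited, none past 2-fold, and the median log2 ratio was 0.06. With a common median the split was again 5 and 4. Quantile normalization, loess, a common trimmed mean and centring each gave 3 higher and 6 lower, with medians from -0.16 to -0.09. SNHG17, host of SNORA71 RNAs, was the highest at 435 and 767, 1.76-fold, and its other probe set read 429 and 565, 1.32-fold. Both probe sets went the same way, with log2 ratios of 0.82 and 0.40.

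ZFAS1, host of SNORD12 RNAs and antisense to the start of ZNFX1, was higher on all 4 probe sets with ratios close together. The bright ones read 3499 and 4577, 3306 and 4335, and 3129 and 3948, and the dim one 151 and 176. The log2 ratios ran from 0.22 to 0.39. After loess the brightest had a ratio of 0.12, so ZFAS1 lay near the other bright genes. Its neighbour ZNFX1 read 265 and 390 (0.56).

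SNHG32 read 1324 and 1764 (1.33-fold), and EPB41L4A-AS1 read 1087 and 1191 with 194 and 233 on its other probe set. SNHG33 read 434 and 451 on one probe set and 138 and 248 on the other (1.80-fold), so its probe sets did not give 1 value. The RNAs that read lower each had 1 entering probe set. DANCR, an RNA linked to keeping epidermal progenitors undifferentiated, read 625 and 426, 1.47-fold lower. SNHG19 read 1496 and 1052, 1.42-fold lower. SNHG22 read 63.1 and 47.4 and GAS5, a growth-arrest RNA that is stabilised when translation stops, read 250 and 206 on its only single-symbol probe set. DANCR and SNHG19 were the only snoRNA hosts below the probe set SD, at -0.55 and -0.51, and after loess both were at -0.77. The 3 entering hosts with a TOP start did not move together, since ZFAS1 and SNHG32 read higher and SNHG19 lower.

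Among protein genes of the same pathways none was past 2-fold on its brightest probe set as deposited. All 13 entering snoRNP protein genes, which bind and mature small nucleolar RNAs, read higher with a median log2 ratio of 0.30, and after loess 9 were above 0 and 4 below with a median of 0.05. The highest was ZNHIT6, a snoRNP assembly factor, at 1076 and 2084 (0.95, and 1.09 after scaling to a common median), although its dim probe set read 68.9 and 47.4. NUFIP1 (0.70) and NAF1 (0.65), both assembly factors, followed, and the other entering NUFIP1 probe sets gave 1.14 (2.21-fold) and 0.03. Of the nonsense-mediated decay factors 8 entered and all 8 read above the median of all genes as deposited and under all 5 other normalizations, with a median of 0.37 (0.18 after loess). RBM8A (0.57), UPF2 (0.52) and UPF1 (0.44), the last being the helicase at the centre of this decay, had the highest ratios, although the 6 RBM8A probe sets ran from -0.25 to 1.66. The 15 entering TOP genes of translation other than ribosomal proteins had a median of 0.25, and 0.00 after loess, with HNRNPA1 (0.64), NPM1 (0.42) and EEF1D (0.37) highest. The other entering EEF1D probe sets gave 0.35, -0.37 and -0.85, the lower ratios from dim ones.

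The microRNA host RNAs were mostly dim. Of 28, 10 entered, 3 read higher and 7 lower, none past 2-fold, and the median log2 ratio was -0.07. After scaling to a common median 6 read higher and 4 lower, with a median of 0.06. MIR1915HG was the lowest. Its brightest probe set read 770 and 436, 1.77-fold lower (-0.82), while the others read 239 and 195 (-0.29) and 252 and 240 (-0.07). All 3 went downward by different amounts, and the representing probe set passed 2-fold after loess (-1.04), quantile normalization (-1.05) and scaling to a common trimmed mean (-1.03).

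DLEU2, the primary transcript of miR-15a and miR-16-1, was higher on its brighter probe sets. The brightest read 436 and 697 (1.60-fold) and the next 195 and 346 (1.77-fold). By their _x_at names both may also read related transcripts. The third brightest read 176 and 199 (0.18) and a dim one 80.3 and 106 (0.40). A pair of further dim ones (81.4 and 75.2, 51.2 and 50.4) read nearly alike on both arrays. The 6 entering probe sets thus ran from -0.11 to 0.82, with a median of 0.29. TRIM13, a ubiquitin ligase gene beside DLEU2, read 319 and 408 (0.36). FTX, which lies in the X inactivation centre and hosts microRNAs of the miR-374 family, read 524 and 620 (0.24). Its other probe set, under the filter, read 44.6 and 39.1 (-0.19).

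The others had signals under 150 on both arrays. MIR31HG, which encloses miR-31, read 80.1 and 54.4 (1.47-fold lower), MIR3945HG 104 and 74.5, and MIR3936HG 97.9 and 71.6. MIR99AHG, host of miR-99a, let-7c and miR-125b-2, had a representing probe set at 75.6 and 72.4 (-0.06), while its other probe sets read 82.9 and 50.2 (-0.72) and 67.4 and 40.0 (-0.75). The choice of probe set thus decides its ratio, and the median over all 3 was -0.72. MIR570HG read 146 and 140 (-0.06) on one probe set and 38.1 and 61.7 (0.70) on the other. MIR924HG read 77.3 and 72.9, and MIR3681HG read 49.2 and 66.2 (0.43), just above the filter. The other MIR3681HG probe sets, under the filter, went lower (29.2 and 8.6, 14.5 and 5.0), and that of MIR3945HG went higher (5.6 and 20.1).

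The microRNA processing genes had a median log2 ratio of 0.22 over 13 entering genes, 9 above 0 and 4 below, and none past 2-fold. The lowest were AGO4 (-0.43) and TNRC6B (-0.42). AGO2, the slicing Argonaute, read 332 and 531 (0.68), TNRC6A, a silencing scaffold, 978 and 1449 (0.57), and TARBP2, a Dicer partner, 489 and 715 (0.55). The other entering TARBP2 probe set, a dim one, read 59.7 and 50.4 (-0.24). After loess the median was -0.01. Of the paraspeckle protein genes 14 entered, with a median of 0.34 and MATR3 alone past 2-fold (101 and 285, 2.82-fold, on its 1 single-symbol probe set). HNRNPH3 (0.59) and TARDBP (0.55) followed, although the other entering TARDBP probe sets gave 0.07 and 0.14. After loess 8 of the 14 paraspeckle genes were above 0 and 6 below.

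**Figure D3:**
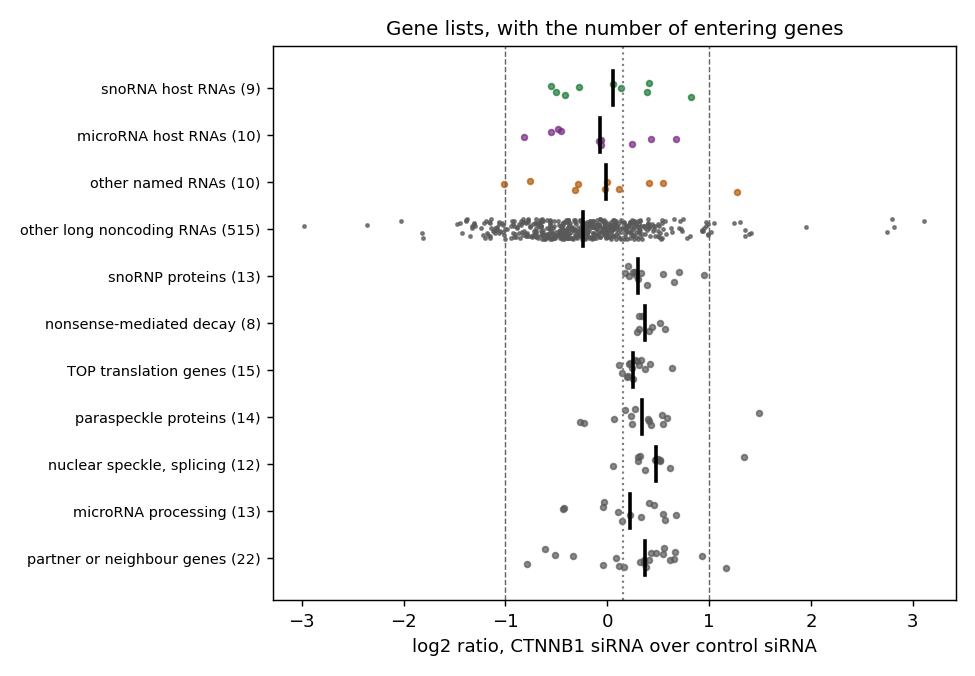
Log2 ratio (CTNNB1 siRNA over control siRNA) of each entering gene by list, with the list median as a black bar, the median of all genes (0.15) as a dotted line and 2-fold as dashed lines; vertical scatter within a row is random. The noncoding RNA rows lie lower and spread wider than most protein gene rows, whose medians run from 0.22 to 0.47.

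A list of genes that neighbour or partner members, or RNAs of the same kinds with no single-symbol probe set, held 31 genes, of which 22 entered, 17 above 0, with a median of 0.37 and 1 past 2-fold. That gene was WDR81, next to MIR22HG, on a dim probe set (65.0 and 146, 2.25-fold), and it was under 2-fold after scaling to a common trimmed mean. MIR22HG and SNHG1 are not among the 56 members, since their probe sets list several symbols. SLC3A2, an amino acid transporter subunit beside SNHG1, read 1443 and 2742 (0.93, and 1.06 after scaling to a common median). CDKN1C, an imprinted cell cycle inhibitor in the KCNQ1OT1 domain, read 309 and 179 (-0.79), although its dim entering probe set read 55.4 and 53.8. After scaling to a common trimmed mean CDKN1C was at least 2-fold lower, the only gene of the list past 2-fold there.

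The 515 other entering genes with a long noncoding RNA symbol (LINC followed by digits, or ending in AS, IT or DT) had a median log2 ratio of -0.23, with 47 past 2-fold downward and 13 upward, 11.7% in all against 4.67% of all genes. The split was 30 and 23 with a common median, 33 and 18 after loess and 80 and 11 after scaling to a common trimmed mean. They were dim, with a median signal of 78.8 against 525 for the members. The 51 bright ones had a median of -0.03 and none past 2-fold, against 0.09 for the 18 bright members and 0.23 for all bright genes. Members under the 75th percentile had a median of -0.08 over 11 RNAs, against -0.26 over the 464 other noncoding RNAs (12.9% past 2-fold, against 8.92% of all dim genes) and -0.09 over all genes of that range. After loess the medians of bright and dim members were both -0.14, against -0.01 for all bright and -0.06 for all dim genes. Where the members stand against all genes of like signal thus depends on the scaling for the dim ones.

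**Figure D4:**
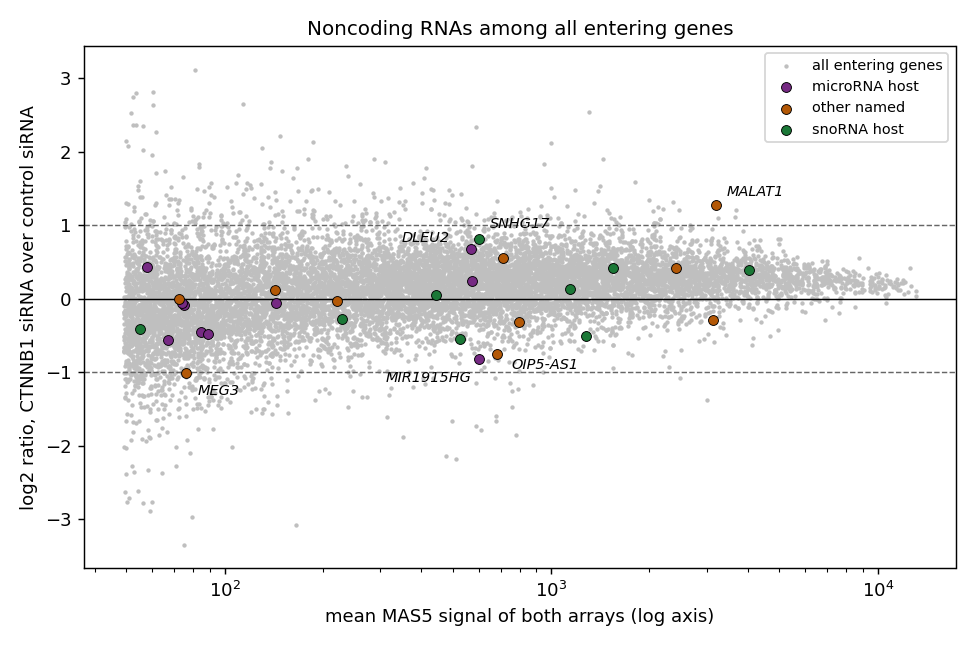
Log2 ratio (CTNNB1 siRNA over control siRNA) against the mean signal of both arrays (log axis) for 12531 genes (grey) and the 29 members (coloured by class); dashed lines mark 2-fold. MALAT1 (1.28) lies above nearly all genes of its signal, and MEG3 (-1.01) lies among many dim genes with ratios as low.

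The remaining 27 members had no entering probe set, and no signal above 57.2 on either array. They were 18 microRNA hosts, 6 snoRNA hosts (SNHG4, SNHG10, SNHG18, SNHG24, SNHG27 and SNHG28) and HOTAIR, KCNQ1OT1 and PVT1. MIR3976HG, MIR4307HG, MIR4500HG, MIR646HG and MIR663AHG were under 13.8, the 25th percentile of all values, on both arrays. KCNQ1OT1, the antisense RNA that silences its imprinted domain, read 30.3 and 4.8 on its brightest probe set and 19.7 or lower on the other 4. SNHG27 read 45.4 and 5.2 on one probe set and 30.2 and 3.8 on the other. MIR205HG, host of a microRNA of squamous epithelium, read 21.2 or lower. Without detection calls these values are not separable from background, and differences between them are not read.

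The sign of 21 of the 29 ratios was the same as deposited and under 5 other normalizations, 9 higher and 12 lower. The 9 were MALAT1, SNHG17, DLEU2, DLEU1, MIR3681HG, SNHG32, CRNDE, ZFAS1 and FTX. The 12 were MEG3, MIR1915HG, OIP5-AS1, MIR31HG, DANCR, SNHG19, MIR3945HG, MIR3936HG, SNHG22, TUG1, NORAD and GAS5. The other 8, such as EPB41L4A-AS1 (-0.13 to 0.27) and CYTOR (-0.10 to 0.25), changed sign with the scaling.

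**Figure D5:**
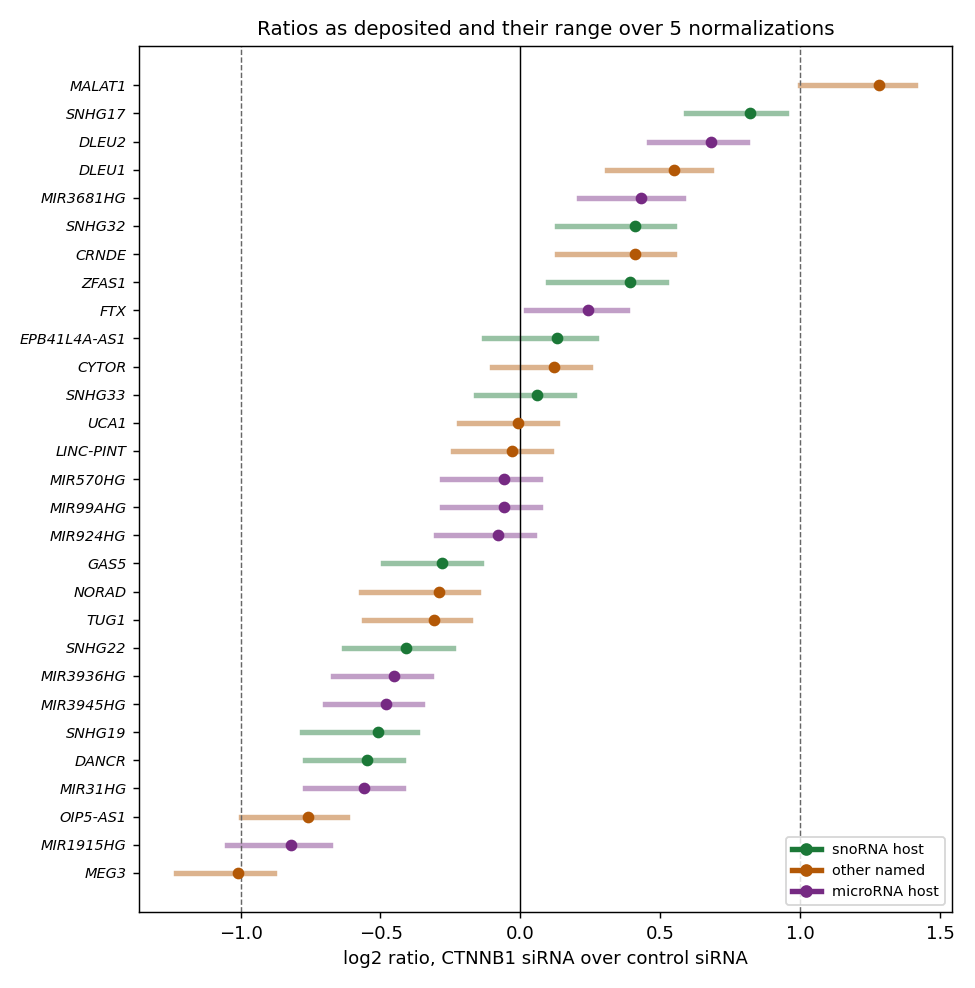
Log2 ratio (CTNNB1 siRNA over control siRNA) of each of the 29 RNAs as deposited (point) and its lowest and highest value over 5 other normalizations (bar), with 2-fold as dashed lines. MALAT1 runs from 1.0 to 1.41 and MEG3 from -1.23 to -0.88, and 8 bars cross 0.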

How the data were processed

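Total RNA of 2 cultures was labelled with biotin and read on 2 expression arrays, 1 per group. The deposited values are linear signal intensities per probe set, made by the authors with MAS5, per the submitters' processing notes. The sources used here do not give MAS5's version, target intensity or detection calls. Trimmed means (2%) of 233 and 271 and medians of 51.3 and 46.7 show that the arrays do not share 1 target, and the number of arrays limits the precision.

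GEO's platform annotation gave 1 symbol for 41097 probe sets, several for 1801 and none listed for 11777. From the deposited intensities, log2 ratios (CTNNB1 siRNA over control siRNA) were computed without another normalization, with the 25th percentile of all values (13.8) as a floor, so that a fold against the floor is a lower bound. Probe sets with a mean signal under the median of all values (49.1) did not enter. Genes were called at 2-fold. The steps were tested on simulated data, in Python 3.11.15 with statsmodels 0.14.6.

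Named were CTNNB1, every entering member, and of each protein gene list the 3 largest absolute ratios and all past 2-fold. The other long noncoding RNAs are given by counts, and further genes or members named were chosen after their values were seen. Members and lists were chosen with earlier results of these data known. Alternatives were 5 normalizations, 2 treatments of low signals, 2 filters, 2 choices of probe set and updated symbols (no member's symbol changed). By Affymetrix's naming, _s_at and _x_at probe sets may also read related transcripts. No genome build is named for the arrays, so coordinates are given only for RefSeq sequences.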

Additional observations from a re-analysis of the deposited data

How the results depend on the processing

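The count of members at least 2-fold lower was 1 as deposited. It was 0 after scaling to a common median, 0 with a pseudocount of 1 and 0 with only bright genes (75th percentile), where MEG3 did not enter, and 2 after scaling to a common 2% trimmed mean (MEG3 and MIR1915HG). After loess and quantile normalization the count was 1 but the member was MIR1915HG, not MEG3. The count at least 2-fold higher was 1, MALAT1, except 0 with the median over entering probe sets (MALAT1 at 0.59). With no filter, which adds the 27 dim members, the counts were 6 lower and 3 higher of 56 members. Over all 19775 genes they were 1275 lower and 722 higher at that setting. The calls added there were all of members without an entering probe set, whose differences are not read here. The median of the members ran from -0.28 with the trimmed mean to 0.09 with bright genes alone. MALAT1 and MEG3, the 2 called members, kept their signs in every alternative in which they entered. For all genes, 298 lower and 287 higher calls became 183 and 472 after scaling to a common median, 543 and 128 with the trimmed mean, 439 and 170 after centring, 1275 and 722 with no filter, 34 and 139 among bright genes, 160 lower with the floor at the median, and 477 and 679 when each gene took its most changed probe set. No paired analysis was possible because each group is 1 array, and for the same reason no replicate could be left out. The cause of these changes was not tested.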

Other observations

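The 76 probe sets that list a symbol of the rule together with other symbols were counted without naming a gene, an alternative chosen after seeing the data. Of these 49 entered, 32 above 0 and 17 below, with a median log2 ratio of 0.24. There were 4 at least 2-fold higher and 2 at least 2-fold lower, against 5 and 1 of the 62 entering single-symbol probe sets, all 5 of which read MALAT1. Over all entering probe sets 3.48% were at least 2-fold higher and 2.42% at least 2-fold lower.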
